A study of Mus musculus with 16 samples.

Results

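Messenger RNA of 40 genes for ribosome biogenesis and for the Myc response was followed in CD8+ T cells of mouse kidney allografts and spleens. The genes were taken from a list of names with known roles, which was chosen with earlier results of these data known. They are 40 of the 32285 genes that the matrices list, and all of them are among the 16243 genes present in each of the 9 matrices of CD8+ T cells. Viable CD45+ cells were sorted and profiled by droplet scRNA-seq, which reads the 3′ end of mRNA and counts molecules by their unique molecular identifiers (UMIs). All mice were wild type. Accepted allografts were DBA/2J kidneys in B6 recipients that were given no immunosuppression, taken with the recipient spleens at 1, 3, and 24 weeks after transplantation (3, 5, and 3 libraries in each tissue). Rejecting allografts were B6 kidneys in DBA/2J recipients at 1 week (2 kidney and 3 spleen libraries), and naive spleens (5 libraries) came from mice without a transplant. GEO's labels give the strain C57BL/6J for every sample, which is the recipient strain of acceptance and not that of rejection in the study's methods. Recipient strain, donor strain, and rejection therefore cannot be told apart here. Library tags in the cell barcodes were taken as mice, because the study names as many mice per time point as there are tags in accepted kidney and spleen.

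Ribosomes are assembled in the nucleolus, where RNA polymerase I transcribes the precursor of ribosomal RNA. Small nucleolar ribonucleoproteins of the box C/D and box H/ACA classes modify that precursor, and assembly factors fold and trim it into the small and the large subunit. T cells enlarge their nucleoli and make more ribosomes when they are activated and before they divide, and the transcription factor MYC, which binds E-box sequences, is a known driver of these genes and of genes for polyamine synthesis and nuclear transport.

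The canonical E-box CACGTG, which reads the same on both strands, was looked for from 250 bases before to 50 bases after the start of each gene in RefSeq (GRCm38.p6). A sequence was matched for 35 of the 40 genes. The motif was in 8 of these 35 sequences (22.9%), and in 2187 of all 27025 genes (8.09%) or 1309 of the 11644 genes that are in each of the 9 matrices (11.2%). Relative to the start, its first base lay at -118 in Ran, -60 in Nop2, -189 in Eif4a1, -18 and -29 in Nme1, 2 in Pes1, 17 in Wdr43, 28 in Ltv1, and 37 in Utp20. A match is a description of the letters and not a binding site, and no binding was measured. Of the genes with the motif upstream of the start, 3 are printed here 5′ to 3′ on the strand of the gene, with the motif in capitals, because Ran led the difference between dividing and other cells and Nop2 and Eif4a1 stand for the large subunit and for Myc targets. The printed stretches end at the start of the gene in RefSeq, or in GENCODE release 21 where that is earlier, as in Ran. They lie at chr5:129019906-129020068 (plus strand), chr6:125131633-125131882 (plus strand), and chr11:69672424-69672673 (minus strand) of GRCm38.
Ran: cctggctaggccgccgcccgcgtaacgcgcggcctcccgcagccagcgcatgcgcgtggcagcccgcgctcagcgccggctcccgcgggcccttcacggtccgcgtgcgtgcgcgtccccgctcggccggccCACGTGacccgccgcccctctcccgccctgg
Nop2: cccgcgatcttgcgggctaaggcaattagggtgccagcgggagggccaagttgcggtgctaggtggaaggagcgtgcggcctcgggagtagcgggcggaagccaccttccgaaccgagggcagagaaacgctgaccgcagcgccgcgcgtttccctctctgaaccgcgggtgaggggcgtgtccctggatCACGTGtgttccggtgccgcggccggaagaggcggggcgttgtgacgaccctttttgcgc
Eif4a1: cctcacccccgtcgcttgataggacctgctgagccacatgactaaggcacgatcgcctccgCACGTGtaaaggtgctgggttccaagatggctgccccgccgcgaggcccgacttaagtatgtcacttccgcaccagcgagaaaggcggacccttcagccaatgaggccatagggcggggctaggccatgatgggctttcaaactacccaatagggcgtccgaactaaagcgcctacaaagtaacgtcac

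CD8+ T cells were taken as cells with a UMI of Cd8a or Cd8b1, and a dividing cell as one with a UMI of at least 2 of Mki67, Top2a, Birc5, and Stmn1. All others are called other cells. The UMIs of a gene in a library and population were added up and scaled to 1000000 UMIs (CPM). The other cells of a library held 139816 to 10775716 UMIs, of which 781 to 52140 were from the 40 genes. The smallest library was a rejecting spleen of 56 cells. CD8+ T cell markers were present in every group. In other cells of accepted kidneys they summed to 4021 to 4989 CPM at 1 week and 5653 to 6297 CPM at 3 weeks, and myeloid markers to 169 to 307 CPM and 202 to 324 CPM. Ccr7, Lef1, and Tcf7, genes of naive T cells, summed to 166 to 262 CPM in 1-week accepted, 19.9 to 30.8 CPM in 3-week accepted, and 73.6 to 161 CPM in rejecting kidneys. In spleens they summed to 799 to 867 CPM at 1 week, 1082 to 1135 CPM at 3 weeks, and 995 to 1126 CPM in naive mice. The part of these levels in the results was not tested. At 24 weeks the libraries went against their tissue labels when set beside the 3-week libraries of accepted mice. Cells with a Cd8a or Cd8b1 UMI made up 46.2 to 49.2% of the libraries labelled 24-week kidney and 93.4 to 95.3% of those labelled 24-week spleen, while they made up 83.5 to 90.1% and 96.3 to 97.03% in accepted kidney and 41.9 to 49.2% and 43.98 to 51.8% in accepted spleen at 1 and 3 weeks. This share did not mark the tissue in every group. It was 94.97 to 97.6% in naive spleens, 100% in rejecting spleens, and 76.6 to 78.1% in rejecting kidneys. Of 20 genes of kidney parenchyma, 14 were at 0 in the libraries labelled 24-week kidney, 15 in 3-week spleen, 6 in those labelled 24-week spleen, and none in 3-week kidney. At 1 week 6 were at 0 in accepted kidney, 15 in accepted spleen, and 13 in both rejecting kidney and rejecting spleen. Such counts also depend on UMIs, of which other cells of a library held 9406781 to 10775716 in 3-week kidney and 1931727 to 2895831 in 3-week spleen. One of the 20, Atp1b1, was at 36.2 to 43.3 CPM in the libraries labelled 24-week kidney and 38.3 to 45.8 CPM in 3-week spleen, against 4.80 to 6.31 CPM in those labelled 24-week spleen and 4.53 to 4.83 CPM in 3-week kidney. The other 19 summed to 0.352 to 1.56, 0 to 2.37, 5.93 to 8.39, and 9.20 to 17.5 CPM in the same order. In accepted mice at 1 week they overlapped, with 1.58 to 6.63 CPM in kidney and 0.947 to 1.96 CPM in spleen. Ccr7, Lef1, and Tcf7 summed to 987 to 1047 CPM in the libraries labelled 24-week kidney and 88.3 to 95.3 CPM in those labelled 24-week spleen. Directions at 24 weeks are those of the labels. No more than 21 barcodes were shared by any pair of libraries.

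Among kidneys at 1 and 3 weeks, the 40 genes together were lower in other CD8+ T cells of 3-week accepted and of 1-week rejecting grafts than in those of 1-week accepted grafts. Their summed level was 6176, 5469, and 6569 CPM in the 3 libraries of 1-week accepted kidneys and 3699, 4156, 4023, 4151, and 4178 CPM in the 5 libraries of 3-week accepted kidneys, and these groups did not overlap. It was 4364 and 4639 CPM in rejecting kidneys, also below each 1-week accepted kidney. Spleens had 6183, 6074, and 5795 CPM at 1 week, 5516 to 5907 CPM at 3 weeks, and 5312 to 5856 CPM in naive mice. Libraries labelled 24-week kidney had 5626, 6074, and 5748 CPM, in the range of 3-week spleens or above it, and libraries labelled 24-week spleen had 4305, 4122, and 4217 CPM, below every spleen of 1 and 3 weeks. Rejecting spleens, with 5844, 5586, and 5736 CPM, overlapped those of accepting mice at 3 weeks. Npm1, Nme2, and Ncl gave 44.2% to 57.2% of the UMIs of the 40 genes, and weigh accordingly in the sum. Dividing cells reached 9370, 8105, and 8989 CPM in 1-week accepted kidneys, above the other cells of the same libraries, and cells called dividing in 3-week kidneys had 3784 to 4537 CPM. The share of UMIs on ribosomal protein genes, which enters every CPM, was 30.02 to 31.7% in 1-week and 26.5 to 27.9% in 3-week accepted kidneys, 19.1 to 19.3% in rejecting kidneys, and 36.5 to 39.1% in 1-week, 39.8 to 41.3% in 3-week, and 40.2 to 43.1% in naive spleens. It was 41.7 to 43.5% in the libraries labelled 24-week kidney and 28.8 to 30.9% in those labelled 24-week spleen. In dividing cells it was 27.02 to 28.5% in 1-week and 26.6 to 28.6% in 3-week accepted kidneys, 17.96 to 19.3% in rejecting kidneys, and 24.7 to 27.9% in 1-week spleens. The share on mitochondrial genes was 3.98 to 4.81% in 1-week accepted, 2.05 to 2.38% in 3-week accepted, and 1.37 to 1.45% in rejecting kidneys, with no overlap between these groups. It was 5.67 to 6.30% in 1-week, 3.73 to 4.78% in 3-week, and 3.65 to 4.63% in naive spleens, 5.20 to 5.38% in the libraries labelled 24-week kidney, and 3.49 to 3.79% in those labelled 24-week spleen. The part of either share in the results was not tested.

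**Figure D1:**
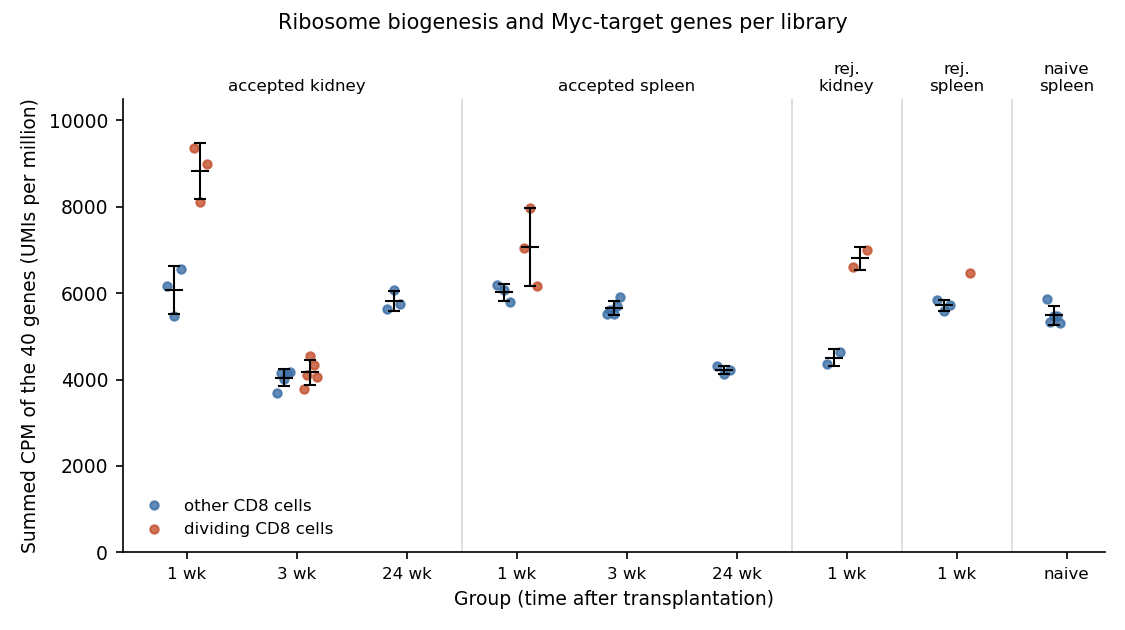
Summed CPM of the 40 genes (vertical axis) per library in each group (horizontal axis), for other and for dividing CD8+ T cells. Each point is a library, and horizontal marks with error bars give the mean and SD where a group has more than 1 point. Dividing cells are drawn only for libraries with at least 20 of them. Other cells of 3-week accepted kidneys lie at 3699 to 4178 CPM and dividing cells of 1-week accepted kidneys at 8105 to 9370 CPM.

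From 1 to 3 weeks in accepted kidneys, other CD8+ T cells lost mRNA of Nme2, Nhp2, Nop16, Mrto4, Ebna1bp2, Nme1, Npm1, Gar1, and Ran relative to all UMIs, while that of the helicase gene Ddx18 rose. Of the 40 genes, 13 rose and 15 fell by edgeR's quasi-likelihood test at an adjusted p of 0.05 over all genes, against 55.9% higher and 17.1% lower among all 11358 genes tested. The median log2 fold change of the 40 genes was 0.01, below the median of 0.46 over all genes, and 34 of the 40 genes lay under that median. With trimmed mean (TMM) factors, which bring the median of all genes to 0.02, only 1 of the 40 genes was higher and 25 were lower, against 31.7% higher and 32.3% lower. All 15 genes that fell at plain totals were lower with TMM factors too, and of the 13 that rose only Ddx18 was higher with both. With all CD8+ T cells, dividing ones included, 8 rose and 18 fell, against 53.6% higher and 21.2% lower, and with cells that held no UMI of 10 genes of division 13 rose and 10 fell, against 54.2% higher and 14.2% lower. Genes of handling stress (Fos, Jun, Junb, Egr1, Hspa1a, and Hspa1b) summed to 1300 to 1762 CPM at 1 week and 2982 to 3537 CPM at 3 weeks, and their part in the result was not tested.

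Of the targets of MYC outside ribosome assembly, 6 of 7 genes were lower at 3 weeks and none was higher, against 17.1% lower and 55.9% higher among all genes. Nme2, a nucleoside diphosphate kinase, had 1200, 1139, and 1659 CPM at 1 week and 447, 482, 432, 459, and 460.1 CPM at 3 weeks (log2 fold change -1.55, SE 0.10, adjusted p = 4.05e-09). Nme1, a neighboring gene on chromosome 11 with a closely similar sequence, fell by a smaller amount (log2 fold change -0.98, SE 0.10, adjusted p = 3.78e-07), and reads of the pair can be split unevenly between them. The groups did not overlap for either gene. Ran, the GTPase of nuclear transport, went from 357, 287, and 426 CPM to 211, 195, 177, 201, and 184 CPM (log2 fold change -0.88, SE 0.10, adjusted p = 1.52e-06). Its partner Ranbp1 fell by 0.53 on the log2 scale. Srm, the synthase of spermidine, fell by 0.67 and Eif4a1, a helicase of translation initiation, by 0.36. Odc1, the ornithine decarboxylase that starts polyamine synthesis, had 122, 108, and 119 CPM at 1 week and 91.4 to 148 CPM at 3 weeks, and the groups overlapped (log2 fold change 0.02, SE 0.12, adjusted p = 0.857; with TMM factors -0.41, adjusted p = 0.00567). Npm1, Ran, and Eif4a1 have processed copies elsewhere in the genome, so their counts are uncertain to that extent.

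Among the small nucleolar ribonucleoproteins, the box H/ACA class, which guides pseudouridylation, fell in 3 of 4 members, against 17.1% lower among all genes. Nhp2 had 143, 127, and 169 CPM at 1 week and 56.7, 63.5, 62.8, 67.3, and 66.6 CPM at 3 weeks (log2 fold change -1.21, SE 0.09, adjusted p = 1.59e-08). All 3-week libraries lay below all 1-week libraries. Gar1 (-0.90) and the pseudouridine synthase Dkc1 (-0.27) fell too, and the small subunit of this particle, Nop10, rose by 0.39 but was at -0.05 with TMM factors. In the box C/D class, which guides ribose methylation, the methyltransferase Fbl fell (-0.24), Nop58 was at -0.13 (adjusted p = 0.295 in edgeR), and Nop56 rose from 76.1, 61.2, and 59.6 CPM to 83.5, 108, 104, 105, and 110.3 CPM (log2 fold change 0.64, SE 0.11, adjusted p = 5.34e-05). Its 1-week and 3-week values did not overlap, yet with TMM factors it was not called (0.21, adjusted p = 0.0697). Rrp9 of the U3 particle was at 0.09 (adjusted p = 0.530; with TMM factors -0.34, and called). Of the abundant nucleolar proteins, Npm1 fell from 1516, 1319, and 1489 CPM to 776, 752, 754, 764, and 790.3 CPM (log2 fold change -0.91, SE 0.07, adjusted p = 2.37e-08). Ncl (-0.13, adjusted p = 0.216) and the helicase Ddx21 (0.17, adjusted p = 0.143; -0.26 with TMM factors) were not called at plain totals, while with TMM factors all 3 were lower, against 32.3% of all genes.

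Assembly factors of the large subunit moved both ways at plain totals, with 4 of 12 higher and 4 lower, against 55.9% higher and 17.1% lower among all genes. With TMM factors 1 was higher and 7 were lower, against 31.7% and 32.3%. Nop16 fell from 19.1, 16.3, and 18.9 CPM to 7.15, 7.23, 8.83, 8.66, and 7.90 CPM (log2 fold change -1.18, SE 0.13, adjusted p = 4.29e-07). Mrto4, which holds the place of a stalk protein, fell from 43.7, 41.4, and 44.3 CPM to 20.3, 22.9, 19.7, 21.5, and 18.6 CPM (log2 fold change -1.07, SE 0.09, adjusted p = 5.55e-08). Ebna1bp2 fell from 74.9, 69.2, and 81.1 CPM to 45.1, 31.4, 35.4, 39.98, and 37.7 CPM (log2 fold change -0.98, SE 0.10, adjusted p = 4.51e-07). For these 3 genes every 3-week library was below every 1-week library. Wdr12, of the complex with Pes1 and Bop1, fell by 0.52, while Pes1 (0.25, adjusted p = 0.0525) and Bop1 (0.08, adjusted p = 0.600; -0.35 with TMM factors) were not called lower at these totals. At the other end, the helicase Ddx18 rose from 44.1, 38.5, and 34.02 CPM to 66.9, 76.3, 81.2, 69.6, and 77.2 CPM (log2 fold change 0.94, SE 0.10, adjusted p = 5.33e-07), and it was the only member called higher with TMM factors (0.50). Gnl3, nucleostemin, had 61.3, 54.2, and 51.3 CPM and 75.7, 88.8, 84.6, 83.7, and 82.8 CPM (log2 fold change 0.58, SE 0.09, adjusted p = 1.81e-05). Noc2l had 43.99, 32.7, and 35.1 CPM and 50.8, 52.8, 59.3, 53.8, and 58.9 CPM (log2 fold change 0.57, SE 0.10, adjusted p = 1.35e-04). Rrp1b rose by 0.45, and with TMM factors Gnl3, Noc2l, and Rrp1b lay at 0.15, 0.14, and 0.01 and were not called. Nop2, an rRNA methyltransferase, was at -0.01 (adjusted p = 0.951) and Rrs1 at 0.10 (adjusted p = 0.450; -0.33 with TMM factors).

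Of 8 factors of the small subunit, 5 were higher and none lower at plain totals, against 55.9% higher and 17.1% lower among all genes. The count of higher genes is near that share. With TMM factors none was higher and 2 were lower, against 31.7% and 32.3%. The 5 were Nop14 (0.51), the snoRNP chaperone Nolc1 (0.45), Noc4l (0.42), Utp20 (0.39), and Wdr43 (0.27), and with TMM factors none of these was called and Noc4l, Utp20, and Wdr43 were below 0 (-0.02, -0.05, and -0.16). Bysl (0.17), the endonuclease Nob1 (0.00), and the export factor Ltv1 (-0.22) were not called (adjusted p = 0.494, 0.988, and 0.0864 in edgeR), and Nob1 was lower with TMM factors (-0.43). Both members that are subunits of RNA polymerase I rose, as did 55.9% of all genes. Polr1b went from 3.16, 3.81, and 2.77 CPM to 5.38, 5.53, 5.45, 3.81, and 4.65 CPM (log2 fold change 0.61, SE 0.21, adjusted p = 0.0156) and Polr1c rose by 0.28, but with TMM factors they lay at 0.18 and -0.16 and neither was called. Among the calls of this comparison, those of Fbl, Polr1c, and Wdr43 were each lost in 5 or more of the 8 fits that left out 1 library, that of Utp20 was lost without 1-week replicate 2 or 3-week replicate 4, that of Dkc1 without 1-week replicate 1, and that of Polr1b without 1-week replicate 3. Without 3-week replicate 1, Ddx21 was called higher (0.25), and so was Pes1 (0.28). Pes1 was also called without 1-week replicate 1 (0.33), and Ltv1 was called lower without 1-week replicate 3 (-0.29).

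**Figure D2:**
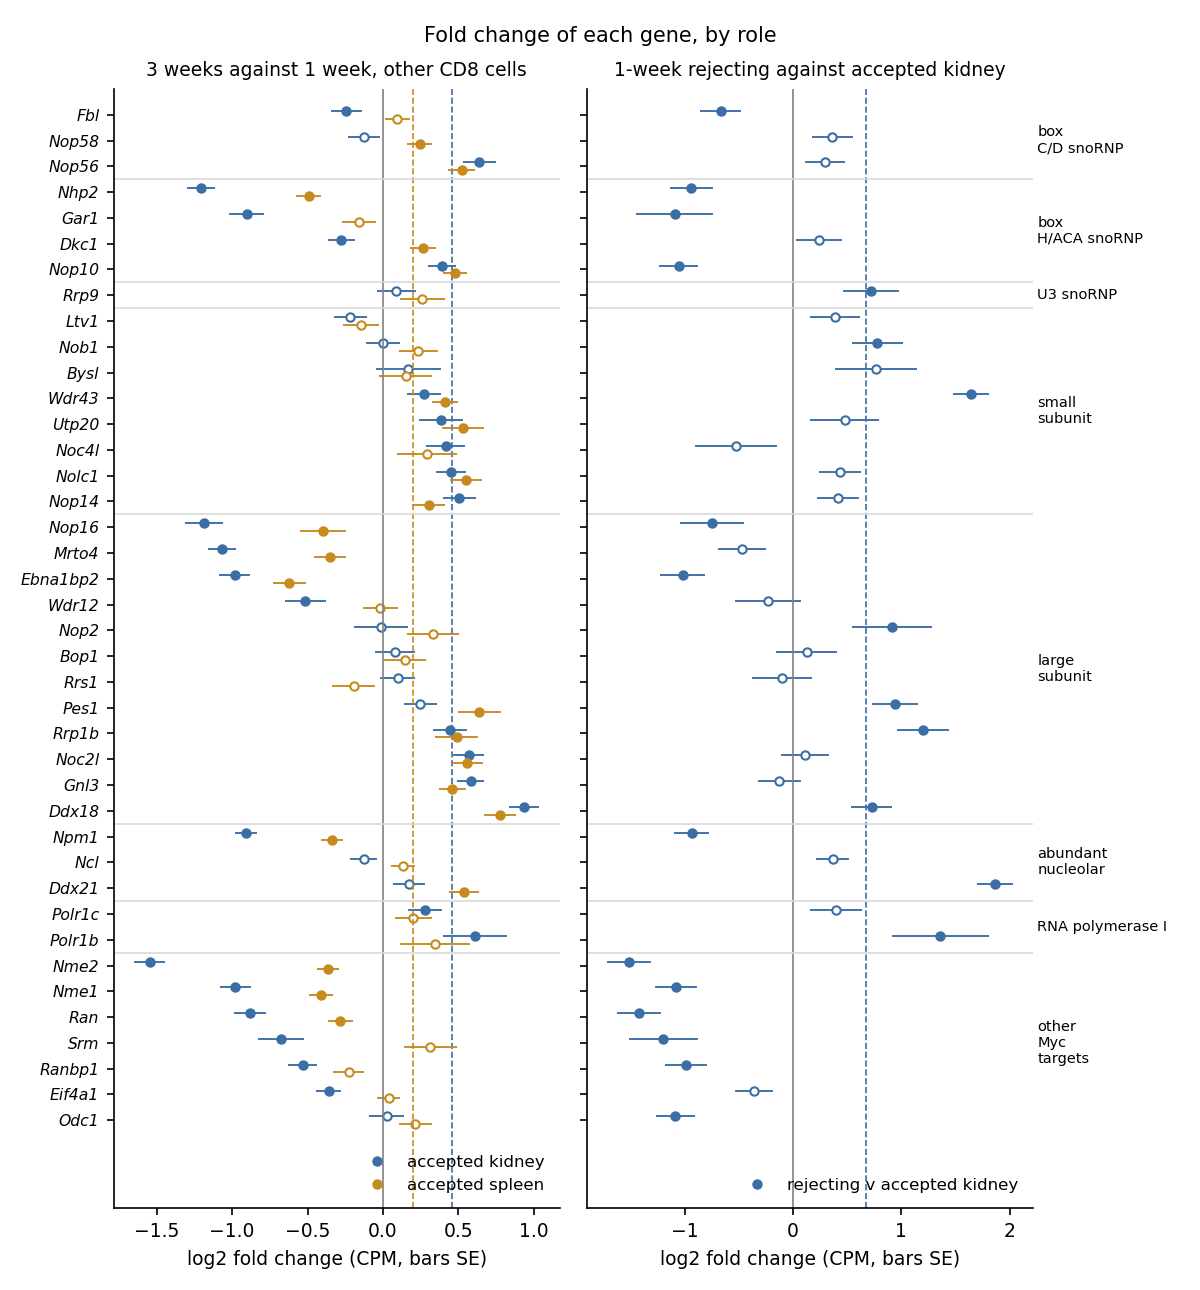
Log2 fold change (horizontal axes) of each of the 40 genes, grouped by role (vertical axis), in other CD8+ T cells at plain totals. The left panel shows 3 weeks against 1 week in accepted kidney (blue) and accepted spleen (ochre), the right panel 1-week rejecting against accepted kidney. Bars are SE, filled points passed an adjusted p of 0.05, and dashed lines mark the median of all genes tested (0.46, 0.20, and 0.67). Nme2, Nhp2, Nop16, and Mrto4 lie farthest to the left in accepted kidney and Ddx18 farthest to the right, and in rejection Ddx21 and Wdr43 lie farthest to the right.

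In the spleen, Ebna1bp2, Nhp2, Nme1, Nop16, and Nme2 fell over the same interval, and Ddx18, Pes1, Noc2l, Nolc1, and Ddx21 rose. Of the 40 genes, 14 were higher and 8 lower at 3 weeks, against 33.4% higher and 14.8% lower among 9361 genes with a median of 0.20, and with TMM factors 10 were higher and 12 lower, against 19.98% higher and 22.05% lower. The log2 fold changes of the lowest were -0.62 for Ebna1bp2, followed by Nhp2 (-0.49), Nme1 (-0.41), Nop16 (-0.40), and Nme2 (-0.36). Nme2 had 1206, 1226, and 1218 CPM at 1 week and 909, 997, 855, 982, and 989 CPM at 3 weeks (log2 fold change -0.36, SE 0.07, adjusted p = 3.45e-04). The highest were Ddx18 (0.78), Pes1 (0.64), Noc2l (0.56), Nolc1 (0.55), and Ddx21 (0.54), and all 10 of these genes kept their call and direction with TMM factors. The call of Nop16 was lost without 1-week replicate 1 or 3 or 3-week replicate 4 or 5 (log2 fold changes from -0.42 to -0.31). Other cells of 3-week spleens held more UMIs, with library medians of 3595 to 5322.5, against 2133.5 to 3546 at 1 week. At 2000 to under 4000 UMIs per cell, the summed level of the 40 genes was 5661 to 6102 CPM at 1 week and 4635 to 5386 CPM at 3 weeks, with no overlap. At 4000 to under 8000 UMIs it was 5795 to 6500 and 5580 to 6433 CPM, with overlap. The part of depth in the result was not tested. Genes of B cells (Cd79a, Cd79b, Ms4a1, and Ighm) summed to 785 to 1373 CPM at 1 week and 367 to 703 CPM at 3 weeks, those of myeloid cells to 92.3 to 119 and 56.3 to 75.97 CPM, and their part in the result was not tested.

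An interaction of tissue and time was fitted to test whether the change from 1 to 3 weeks differed between kidney and spleen. It was lower in kidney for 13 of the 40 genes and higher for none, against 21.5% higher and 7.15% lower among 11363 genes, whose median was 0.24. With TMM factors 20 were lower and none higher, against 11.1% higher and 13.2% lower. The 13 genes were Nme2, Nme1, Ran, Srm, and Eif4a1 of the Myc targets, Nhp2, Gar1, and Dkc1 of the box H/ACA class, Nop16, Mrto4, and Wdr12 of the large subunit, Npm1, and Nop58. The difference was largest for Nme2 (kidney less spleen -1.18 on the log2 scale, SE 0.13, adjusted p = 2.73e-07), followed by Srm (-0.99, SE 0.26, adjusted p = 0.00518) and Nop16 (-0.79, SE 0.19, adjusted p = 0.00333). The highest differences, for Rrs1 (0.29), Polr1b (0.27), Nop14 (0.20), Ddx18 (0.16), and Noc4l (0.12), were not called. Library medians of UMIs per cell overlapped between 1 and 3 weeks in kidney (1778 to 3286 and 1966 to 2982) and not in spleen. The part of depth in the interaction was not tested. When only cells without a UMI of any of 10 genes of division were kept, 3 of the 40 genes were called lower and none higher, against 7.69% higher and 3.80% lower.

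At 24 weeks the libraries labelled kidney had higher values than 3-week kidneys for 22 of the 40 genes and lower values for 5, against 14.1% higher and 57.02% lower among 11511 genes, whose median was -0.51. With TMM factors these were 34 and 1, against 29.1% higher and 31.5% lower. The highest were Gar1 (51.4 to 56.9 CPM, log2 fold change 1.46, SE 0.10, adjusted p = 1.23e-09), Nop16 (1.40), Srm (1.38), Wdr12 (1.16), and Mrto4 (1.13). Gar1 had 17.97 to 21.5 CPM in 3-week kidneys, with no overlap. Noc2l (-0.57), Noc4l (-0.43), Rrp1b (-0.37), and Polr1c (-0.30) were lower at plain totals, but with TMM factors none was called and the latter 3 were above 0. The calls of Noc4l and Polr1c were also lost without 24-week replicate 3 (-0.46 and -0.20), that of Noc4l without 24-week replicate 1 (-0.31), and that of Polr1c without 3-week replicate 5 (-0.27). In the libraries labelled 24-week spleen, 32 of the 40 genes were lower than in 3-week spleens and 1 was higher, against 31.1% higher and 27.2% lower among 9742 genes. The lowest were Srm (9.04 to 11.6 CPM against 19.3 to 42.6 CPM, log2 fold change -1.68, SE 0.20, adjusted p = 2.41e-07), Polr1b (-1.59), Wdr12 (-1.56), Dkc1 (-1.46), and Nop2 (-1.29). Beside Odc1, the highest were Ebna1bp2 (0.25), Nop10 (0.02; -0.26 without mitochondrial and ribosomal protein genes), Ncl (-0.09), and Ran (-0.12), which were not called. The genes of handling stress summed to 1528 to 1877 CPM in the libraries labelled 24-week kidney, below the 2982 to 3537 CPM of 3-week kidneys. They summed to 3000 to 3630 CPM in those labelled 24-week spleen, above the 924 to 1172 CPM of 3-week spleens. Genes of myeloid cells summed to 62.9 to 66.9 CPM in the former, against 202 to 324 CPM in 3-week kidneys, and 149.9 to 210.2 CPM in the latter, against 56.3 to 75.97 CPM in 3-week spleens. Those of B cells summed to 300.3 to 477 CPM against 198 to 273 CPM in kidney and 121 to 409 CPM against 367 to 703 CPM in spleen, and the part of these genes was not tested. Library medians were 4510 to 6064 UMIs per cell in the libraries labelled 24-week kidney and 1966 to 2982 in 3-week kidneys. They were 2404.5 to 2751 in those labelled 24-week spleen and 3595 to 5322.5 in 3-week spleens. At 2000 to under 4000 UMIs, the summed level was 4769 to 5369 against 3635 to 4230 CPM for kidney and 4038 to 4119 against 4635 to 5386 CPM for spleen. The part of depth was not tested. Since the cells go against the tissue labels at this time, a difference between time points of a tissue cannot be told apart from a difference between tissues.

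Odc1 stood apart from the other members in its pattern across groups. It had 122, 108, and 119 CPM in 1-week kidneys, 91.4, 121, 112, 118, and 148 CPM in 3-week kidneys, and 177, 131, and 159 CPM in the libraries labelled 24-week spleen. In all other accepted and naive groups it was between 19.4 and 43.2 CPM, with 20.4, 31.4, and 25.9 CPM in the libraries labelled 24-week kidney and 19.4 to 27.05 CPM in naive spleens. It fell by 2.18 from 3-week kidney to the libraries labelled 24-week kidney (SE 0.16, adjusted p = 5.08e-09 in edgeR) and rose by 1.97 from 3-week spleen to those labelled 24-week spleen (SE 0.11, adjusted p = 2.81e-13). Srm, which acts after it in polyamine synthesis, moved the opposite way in both comparisons, by 1.38 and -1.68.

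**Figure D3:**
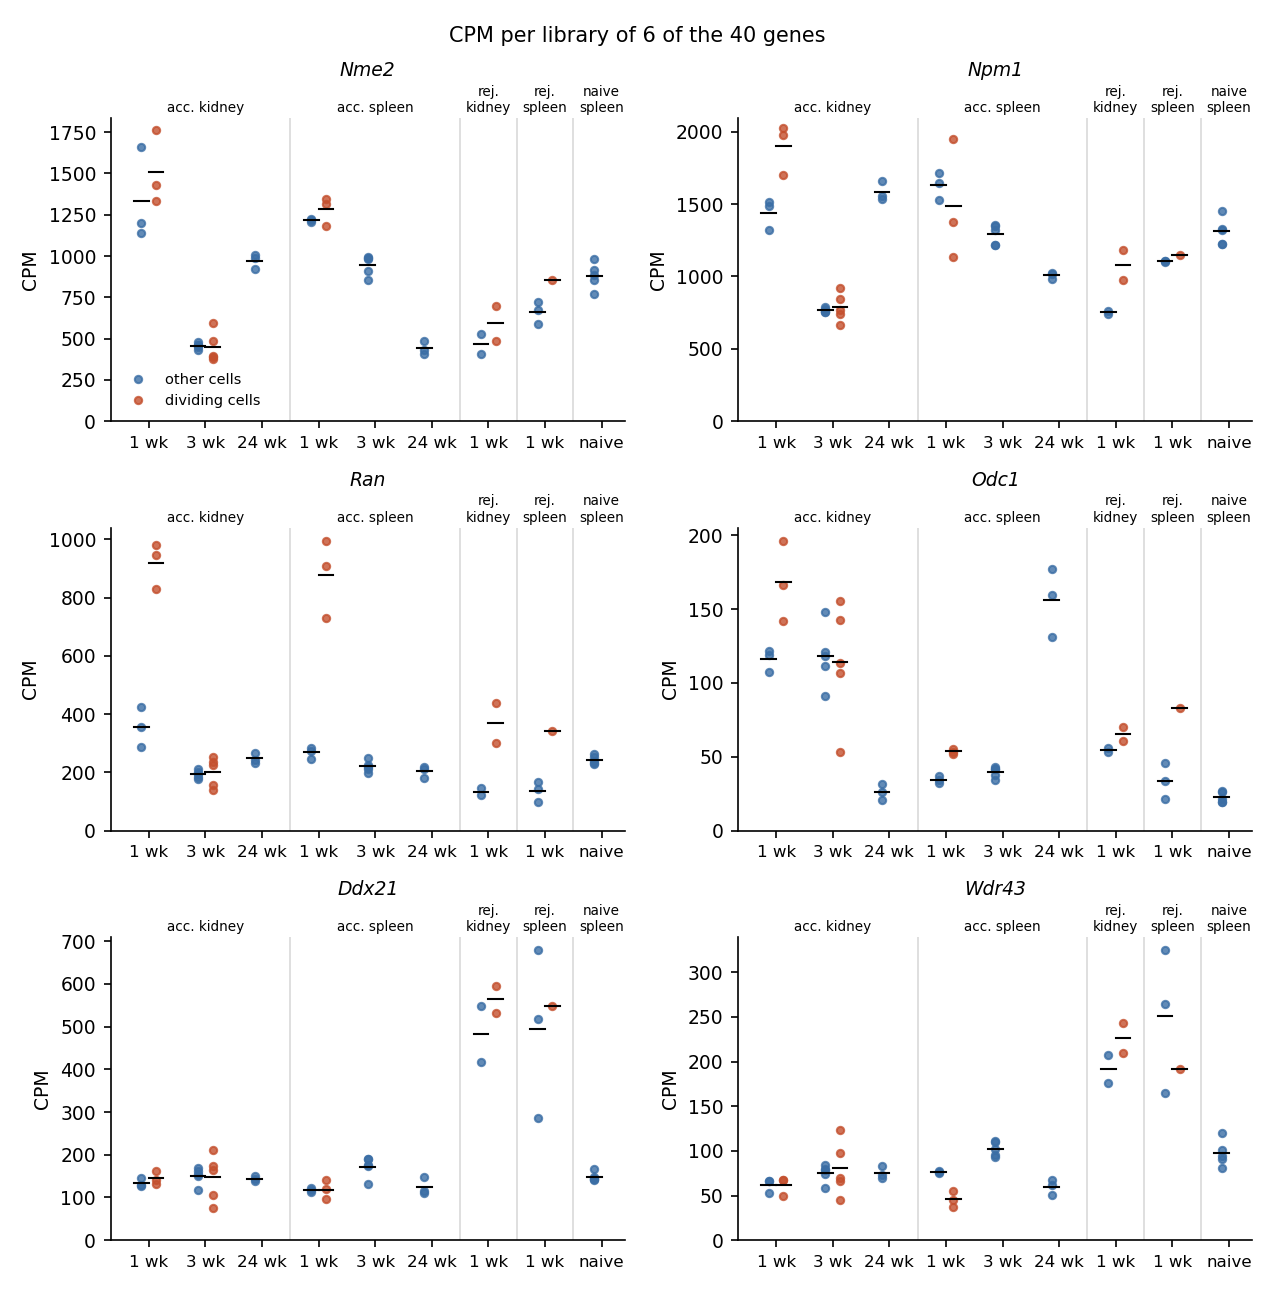
CPM (vertical axes, linear from 0) per library in each group (horizontal axes) for 6 of the 40 genes, in other (blue) and dividing (red) CD8+ T cells. Points are libraries and bars are means, and dividing cells are drawn only for libraries with at least 20 of them. In other cells, Nme2 lies at 432 to 482 CPM in 3-week accepted kidneys and 408 to 483 CPM in the libraries labelled 24-week spleen, against 1139 to 1659 CPM in 1-week accepted kidneys, and Ddx21 and Wdr43 are highest in rejecting kidneys and spleens.

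At 1 week, other cells of accepted kidneys were compared with those of the recipient spleens. Of the 40 genes, 3 were higher in kidney and 16 lower, against 26.4% higher and 18.3% lower among 10434 genes. This balance depended on which cells were left out as dividing. With dividing cells found after thinning each cell to 1000 UMIs it was 8 higher and 8 lower, against 29.6% higher and 18.5% lower, and with all CD8+ T cells 9 and 7, against 29.96% higher and 19.4% lower. The median log2 fold change of the 40 genes was -0.23, 0.045, and 0.071 in these 3 settings. Genes of B cells summed to 183 to 213 CPM in kidney and 785 to 1373 CPM in spleen, those of myeloid cells to 169 to 307 and 92.3 to 119 CPM, and their part was not tested. Odc1 was the highest (log2 fold change 1.76, SE 0.11, adjusted p = 8.42e-10), with 108 to 122 CPM in kidney and 32.2 to 36.7 CPM in spleen, and Nme1 (0.52) and Ran (0.41) were higher too. Polr1b was the lowest, with 3.16, 3.81, and 2.77 CPM in kidney and 6.04, 8.99, and 6.36 CPM in spleen (log2 fold change -1.11, SE 0.26, adjusted p = 0.00197). Gnl3 (-0.89), Wdr12 (-0.82), Rrs1 (-0.77), and Nop2 (-0.74) followed, and 6 of 8 small subunit factors were lower. Ran was not called without kidney replicate 3 (0.26) or spleen replicate 3 (0.35). Nhp2 (0.23) and Ranbp1 (0.23) were not called (adjusted p = 0.106 and 0.159 in edgeR), and Nhp2 was called without kidney replicate 2 (0.33).

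The recipient spleen at 1 week was compared with naive spleen. At plain totals 6 of the 40 genes were higher and 18 lower, against 18.3% higher and 38.4% lower among 10027 genes with a median of -0.21, and with TMM factors 13 were higher and 8 lower, against 26.2% higher and 24.03% lower. The higher genes were Odc1 (0.59), Nme1 (0.49), Nme2 (0.47), Nhp2 (0.46), Ebna1bp2 (0.41), and Npm1 (0.31), and all 6 were higher with TMM factors too. Nme1 had 286, 285, and 252 CPM at 1 week and 214, 186, 203, 187, and 188 CPM in naive spleens. The lowest was Ddx18 with 45.6, 53.3, and 62.95 CPM against 100.3, 113, 105, 96.8, and 89.4 CPM (log2 fold change -0.90, SE 0.10, adjusted p = 2.05e-07), ahead of Utp20 (-0.58), Noc2l (-0.52), Nolc1 (-0.50), and Nob1 (-0.49). Genes of B cells summed to 785 to 1373 CPM in 1-week and 248 to 327 CPM in naive spleens, those of myeloid cells to 92.3 to 119 and 47.4 to 69.9 CPM, and those of handling stress to 891 to 1858 and 429 to 556 CPM. None of these ranges overlapped, and their part in the result was not tested. Naive spleens had deeper cells, with library medians of 3728 to 4980 UMIs against 2133.5 to 3546 UMIs in 1-week spleens. At 2000 to under 4000 UMIs per cell, the summed level was 5661 to 6102 CPM in 1-week and 4690 to 5510 CPM in naive spleens, with no overlap. At 4000 to under 8000 UMIs it was 5795 to 6500 and 5361 to 6126 CPM, with overlap. The part of depth was not tested.

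Dividing cells were most common in 1-week grafts. After each cell had been thinned to 1000 UMIs, they were 14.1, 11.3, and 30.6% of CD8+ T cells in 1-week accepted kidneys and 0.0462 to 0.242% in 3-week kidneys (exact permutation test, two-sided, p = 0.0179, the smallest that 3 against 5 libraries allow; adjusted p = 0.0446 over 5 comparisons). In spleens they were 2.23, 1.54, and 5.64% at 1 week and 0 to 0.184% at 3 weeks (exact permutation p = 0.0179, adjusted p = 0.0446). Kidney and spleen at 1 week did not overlap, but 3 against 3 libraries cannot give a p below 0.1 in this exact test. Naive spleens, which should hold few dividing cells, had 0 to 0.265%, and rejecting kidneys had 9.22 and 39.3%. Without thinning the shares were 24.1 to 48.2% and 0.508 to 1.31% in 1-week and 3-week accepted kidneys.

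Within the 1-week accepted kidneys, 30 of the 40 genes were higher in dividing than in other cells and none was lower, against 28.00% higher and 18.3% lower among 10411 genes, with the library as a block. Ran led with 981, 830.3, and 946 CPM in dividing and 357, 287, and 426 CPM in other cells of the same 3 libraries (log2 fold change 1.38, SE 0.06, adjusted p = 3.95e-12). Ranbp1 followed with 428, 348, and 376 CPM against 184, 141, and 173 CPM (log2 fold change 1.21, SE 0.05, adjusted p = 3.78e-12). Both were higher in dividing cells of each library. When dividing cells were found after thinning to 1000 UMIs, 13 genes were higher and 1 was lower, against 18.2% higher and 10.9% lower. In the fit without thinning, all 7 Myc targets and all 3 box C/D proteins were higher, among them Nop58 (151, 126, and 106 CPM against 80.6, 62.5, and 58.7 CPM, log2 fold change 0.92, SE 0.06, adjusted p = 1.52e-09). Nolc1 (0.86) and Noc4l (0.76) completed the highest 5. At the low end, Nob1 (-0.20, adjusted p = 0.161 in edgeR), Wdr43 (-0.03, adjusted p = 0.761), Nop14 (0.07, adjusted p = 0.482), Nop10 (0.09, adjusted p = 0.214), and Ddx21 (0.10, adjusted p = 0.139) were not called.

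**Figure D4:**
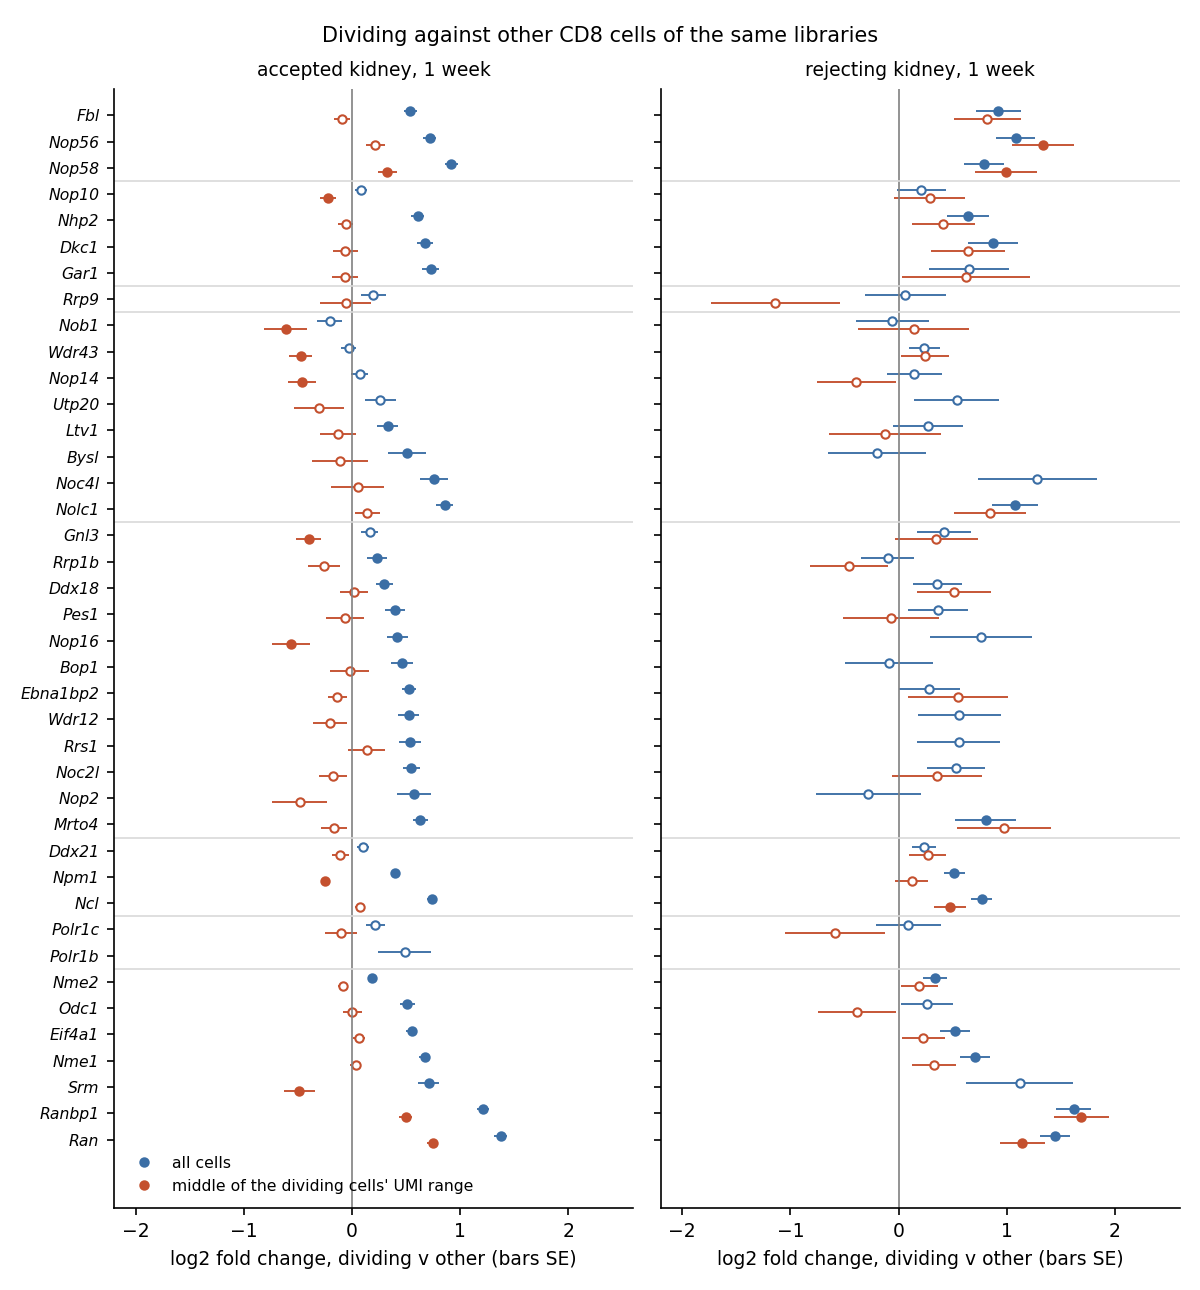
Log2 fold change of the 40 genes (horizontal axes) in dividing against other CD8+ T cells of 1-week accepted (left) and rejecting (right) kidneys, with genes grouped by role on the vertical axis. Blue points are all cells, red points cells in the middle of the UMI range of dividing cells, bars are SE, and filled points passed an adjusted p of 0.05. Ran and Ranbp1 lie farthest to the right for all cells in both panels, and in accepted kidney 30 blue but only 3 red points are filled above 0.

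Dividing cells held more UMIs than other cells, with library medians of 3939 to 7624 and 1778 to 3286 UMIs per cell in 1-week accepted kidneys. The comparison was therefore repeated with cells between the 25th and 75th percentiles of the UMIs of dividing cells in each library, a choice made after the data had been seen. Of 39 genes tested, 3 were then higher in dividing cells and 8 lower, against 13.3% higher and 7.71% lower among 8642 genes. Ran (0.75, SE 0.05, adjusted p = 6.18e-18 in edgeR), Ranbp1 (0.50, SE 0.06, adjusted p = 6.07e-09), and Nop58 (0.33, SE 0.09, adjusted p = 0.00440) stayed higher. Nob1 (-0.61), Wdr43 (-0.48), Nop14 (-0.46), Nop10 (-0.22), Gnl3 (-0.40), Nop16 (-0.56), Npm1 (-0.25), and Srm (-0.48) were lower. The summed level of the 40 genes in these cells was 8234, 7427, and 8091 CPM in dividing and 8447, 7374, and 7943 CPM in other cells, so the populations overlapped. The 10 genes of division, of which 4 defined the populations, summed to 4212 to 5355 CPM and 353 to 774 CPM there.

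In both populations of the 1-week accepted kidneys, deeper cells had a higher summed level. In other cells it was 3996 to 5448 CPM at 1000 to under 2000 UMIs, 4507 to 6866 CPM at 2000 to under 4000 UMIs, and 6245 to 9903 CPM at 4000 to under 8000 UMIs. In dividing cells it was 4811 to 7138 CPM and 6464 to 9369 CPM in the latter pair of ranges and 9110 to 12589 CPM at 8000 UMIs or more. Within each 1-week kidney library the level was higher in each deeper of these ranges. In 3-week accepted kidneys the same 3 ranges of other cells gave 3389 to 3999, 3635 to 4230, and 3971 to 4484 CPM. In 1-week spleens they gave 5156 to 5717, 5661 to 6102, and 5795 to 6500 CPM. Whether doublets are among the cells of most UMIs was not tested.

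**Figure D5:**
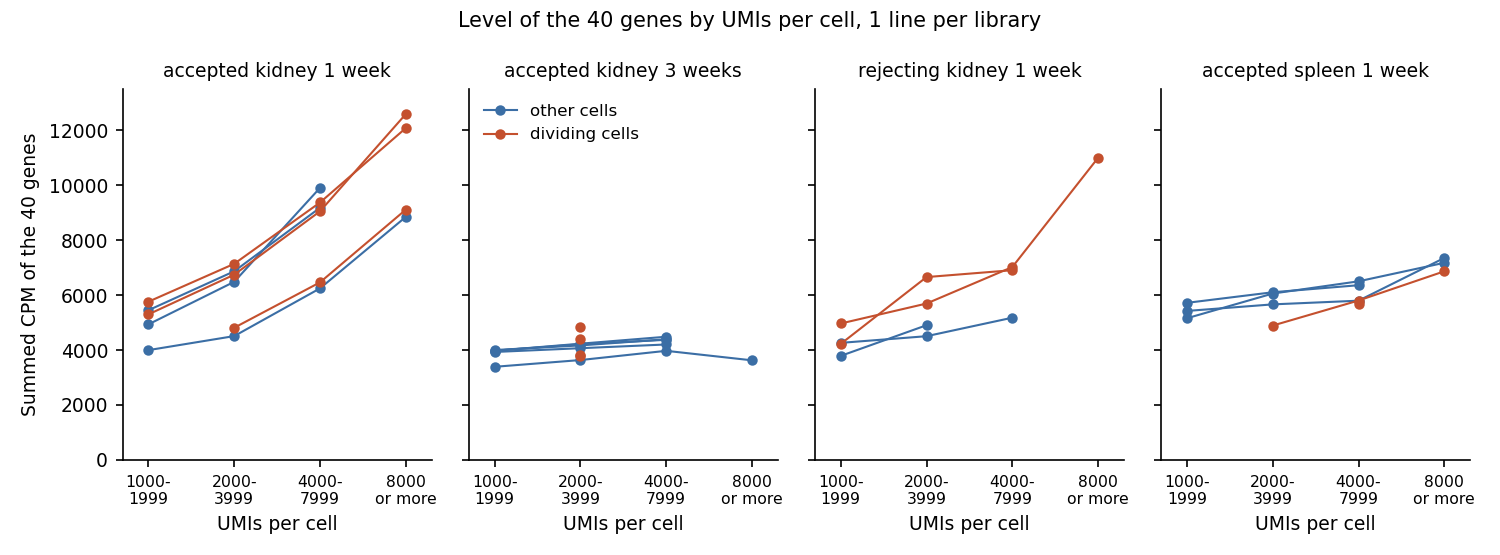
Summed CPM of the 40 genes (vertical axis) by range of UMIs per cell (horizontal axis) in other (blue) and dividing (red) CD8+ T cells of 4 groups. Lines join the ranges of a library, and ranges with under 20 cells are not drawn. In 1-week accepted kidneys other cells lie at 3996 to 5448 CPM in the shallowest and 6245 to 9903 CPM in the third range, and those of 3-week kidneys at 3389 to 3999 and 3971 to 4484 CPM.

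In the 1-week spleen, 6 of the 40 genes were higher in dividing cells and 3 lower, against 22.9% higher and 5.76% lower among 9303 genes with a median of 0.18, and with TMM factors 3 and 12, against 15.5% higher and 10.7% lower. Without spleen replicate 3, 3 were called and all were higher. No percentage of all genes is given for that fit, so its count is not read as a result about the 40 genes. Ran (log2 fold change 1.69, SE 0.11, adjusted p = 1.24e-14), Ranbp1 (1.01), Odc1 (0.64), Nme1 (0.63), Ncl (0.39), and Nhp2 (0.37) were higher, and Nob1 (-0.81), Wdr43 (-0.74), and Gnl3 (-0.48) lower. Genes of handling stress summed to 367 to 787 CPM in dividing and 891 to 1858 CPM in other cells, and Ccr7, Lef1, and Tcf7 to 273 to 385 and 799 to 867 CPM, and their part was not tested. In the middle of the UMI range 3 of 38 genes were higher and 6 lower, against 16.6% higher and 6.99% lower among 6768 genes. In rejecting kidneys, 14 of 39 genes were higher in dividing cells and none lower, against 11.3% higher and 7.54% lower among 8726 genes, led by Ranbp1 (238 and 285 CPM against 74.96 and 95.1 CPM, log2 fold change 1.62, SE 0.16, adjusted p = 1.32e-21), Ran (1.45), Nop56 (1.08), and Nolc1 (1.08). With only 2 libraries, the p-values of this fit rest largely on a spread shared over all genes. DESeq2 called 4 of the 39 genes higher, against 3.31% higher and 0.642% lower, and 2 were higher when dividing cells were found after thinning, against 2.96% higher and 0.501% lower. In the middle of the UMI range 5 of 30 genes were higher there and none lower, against 7.10% higher and 3.47% lower among 5820 genes. The summed level in that range was 6696 and 5952 CPM in dividing and 4968 and 4682 CPM in other cells of rejecting kidneys. Over all cells, Ccr7, Lef1, and Tcf7 summed to 45.5 to 63.02 and 73.6 to 161 CPM there, and their part was not tested. Over all cells of rejecting kidneys the lowest, Nop2 (-0.28), Bysl (-0.20), Rrp1b (-0.10), Bop1 (-0.09), and Nob1 (-0.06), were not called. Whether these differences differ between accepted and rejecting kidneys was not tested.

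Cells called dividing were also compared between 1-week and 3-week accepted kidneys, but they were unlike in the genes of division. Each 3-week library held 22 to 46 of them, of which the call after thinning to 1000 UMIs left 2 to 11. The 10 genes of division summed to 4108 to 5126 CPM in the cells called dividing at 1 week and 821 to 1030 CPM in those at 3 weeks, where 3 of the 10 were at 0. The filter on low counts, which the 1-week libraries alone can meet, left 21 of the 40 genes. A gene that is low at 3 weeks could thus enter only by its level at 1 week, and no count of genes in each direction is given. Ran had 981, 830.3, and 946 CPM at 1 week and 253, 141, 155, 225, and 235 CPM at 3 weeks (log2 fold change -2.11, SE 0.15, adjusted p = 2.82e-11). Nme2 went from 1431, 1334, and 1766 CPM to 395, 388, 593, 488, and 375 CPM (log2 fold change -1.76, SE 0.14, adjusted p = 1.32e-10). Ebna1bp2 (-1.64), Mrto4 (-1.64), and Nme1 (-1.53) had the next lowest values. Since the 1-week libraries alone can bring a gene past the filter, nothing is read from this order. Ddx18 (0.54), Nop10 (0.36), Wdr43 (0.27), Gnl3 (0.17), and Nop56 (0.10) were at the high end and were not called. The dividing cells of 3-week kidneys held 2268 to 3456 UMIs in the median, below the 3939 to 7624 UMIs at 1 week, and genes of handling stress summed to 2516 to 3551 CPM against 1228 to 1663 CPM. The part of these differences in the result was not tested.

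Rejecting and accepted kidneys were compared at 1 week in other cells. Of the 40 genes, 9 were higher in rejection and 13 lower, against 47.3% higher and 11.5% lower among 11061 genes, and the median of all genes was higher by 0.67 on the log2 scale. With TMM factors 2 were higher and 20 lower, against 26.7% higher and 26.6% lower. Of the 7 Myc targets 6 were lower. Nme2 had 409.7 and 527 CPM in the 2 rejecting libraries and 1200, 1139, and 1659 CPM in accepted kidneys (log2 fold change -1.51, SE 0.20, adjusted p = 1.72e-05). Ran had 122 and 147 CPM (log2 fold change -1.42, SE 0.20, adjusted p = 2.84e-05) and Srm 10.5 and 5.76 CPM (log2 fold change -1.20, SE 0.32, adjusted p = 0.00463), against 287 to 426 CPM and 18.4 to 21.99 CPM in accepted kidneys. The rejecting libraries lay below all accepted ones for these 3 genes. Gar1 (-1.10) and Odc1 (-1.09; 53.3 and 56.2 CPM) were next, and Nop10 (-1.06) and Nhp2 (-0.94) were lower too. Gar1 was not called without rejecting replicate 1 (-0.27) or accepted replicate 1 (-1.03). Genes of handling stress summed to 398 to 967 CPM in rejecting and 1300 to 1762 CPM in accepted kidneys, and their part was not tested.

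The highest members in rejection were Ddx21 and Wdr43. Ddx21 had 549 and 418 CPM in rejecting and 145, 128, and 129 CPM in accepted kidneys (log2 fold change 1.86, SE 0.16, adjusted p = 2.54e-07; with TMM factors 1.18, adjusted p = 7.44e-05). Wdr43 had 208 and 176 CPM and 66.6, 66.7, and 53.2 CPM (log2 fold change 1.64, SE 0.17, adjusted p = 1.15e-06; with TMM factors 0.96, adjusted p = 4.08e-04). Their levels in rejecting spleens overlapped those of rejecting kidneys, with 679, 286, and 517 CPM for Ddx21 and 325, 265, and 165 CPM for Wdr43. Spleens of accepting mice at 1 week were lower, with 113 to 123 CPM and 75.5 to 77.8 CPM. Polr1b (1.36), Rrp1b (1.20), Pes1 (0.94), and Nop2 (0.91) were higher at plain totals and not called with TMM factors, and Polr1b was not called without rejecting replicate 2 (1.02). With the genes split into 10 groups by intron length and the median shift of each group removed from every library, Ddx21 was at 1.48 and Wdr43 at 0.57, both still called. Of the 40 genes, called or not, 8 changed sign in that fit.

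Further genes of the same processes were taken from lists of known members. Their counts stand beside the same shares of all genes as above. From 1 to 3 weeks in accepted kidneys these were 55.9% higher and 17.1% lower, and with TMM factors 31.7% higher and 32.3% lower. Here 9 of 30 other genes of the small subunit processome rose and 5 fell (2 and 18 with TMM factors), and 15 of 37 other genes of large subunit assembly rose and 7 fell (5 and 16). Of 13 further genes of RNA polymerase I that were tested, 7 rose and 3 fell (4 and 6), the latter being Polr1d (log2 fold change -1.34, SE 0.09, adjusted p = 2.79e-09), Znrd1 (-0.45), and Polr1e (-0.39) at plain totals. Of 25 other Myc targets, 1 was higher and 11 were lower (0 and 23), led by the transferrin receptor Tfrc (log2 fold change -1.24, SE 0.17, adjusted p = 5.80e-06), the base excision enzyme Apex1 (-1.23), and C1qbp (-0.96). Of 9 genes of the Myc network that were tested, 6 rose and 1 fell (4 and 3 with TMM factors). Mxd4 (log2 fold change 1.81, SE 0.11, adjusted p = 1.50e-09) and Mga (1.42), whose proteins pair with MAX as MYC does, rose, and Myc fell (log2 fold change -0.59, SE 0.20, adjusted p = 0.0133) from 18.2, 19.2, and 19.9 CPM to 19.8, 8.82, 13.5, 9.58, and 11.3 CPM, with overlap. The interaction with tissue was lower in kidney for 12 of the 25 other Myc targets and higher for none, against 21.5% higher and 7.15% lower among all genes. In the other lists it was higher for 3 and lower for 2 of 30 small subunit genes, 1 and 3 of 37 large subunit genes, 4 and 2 of 13 RNA polymerase I genes, and 3 and 0 of 9 Myc network genes. With TMM factors, against 11.1% higher and 13.2% lower, these were 0 and 7, 1 and 10, 0 and 2, and 1 and 0, and 0 and 17 for the other Myc targets. In dividing cells of 1-week accepted kidneys 22 of the 25 were higher and none lower, against 28.00% higher and 18.3% lower, led by Shmt2 (1.02), the cyclin-dependent kinase Cdk4 (1.00), and Pa2g4 (1.00). In the middle of the UMI range 7 of the 25 were higher and 3 lower, against 13.3% higher and 7.71% lower. Of the small subunit genes 20 were higher and none lower in dividing cells (1 and 2 in the middle of the UMI range), and of the large subunit genes 18 and 1 (0 and 7). Of 13 RNA polymerase I genes 6 were higher and 2 lower (1 and 2), and of 10 Myc network genes 2 and 2 (1 and 2). In rejecting kidneys 6 of the 25 were higher and 4 lower at plain totals, against 47.3% higher and 11.5% lower, and 1 and 15 with TMM factors, against 26.7% higher and 26.6% lower. There 10 of 30 small subunit genes were higher and 2 lower (3 and 5 with TMM factors), 17 and 4 of 37 large subunit genes (5 and 10), 7 and 2 of 13 RNA polymerase I genes (3 and 4), and 6 and 0 of 9 Myc network genes (2 and 2).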

How the data were processed

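Per the labels and the study's methods, the authors sorted live CD45+ cells, profiled them by 10x Genomics 3′ chemistry, and deposited matrices of UMI counts per gene and cell. The submitters' processing notes name Cell Ranger and mm10. Per the study's methods, the authors removed cells on limits of genes, UMIs, and mitochondrial share, clustered them in Seurat, and kept cells annotated as CD8+ T cells, with versions and limits not given in the sources used here. The 9 matrices of CD8+ T cells were used (32 libraries), and the other matrices of the series were not used. The libraries were told apart by the tags in the cell barcodes, and the p-values measure the spread between these libraries.

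The 40 members and all gene lists were chosen with earlier results of these data known. Counts were summed per library for dividing cells and for other cells, with no further filter on cells and no doublet caller. Dividing cells of a library were used where there were at least 20. Differences were tested with edgeR's quasi-likelihood test (R 4.3.3, edgeR 4.0.16) with plain library totals after filterByExpr, two-sided, with p-values adjusted by Benjamini and Hochberg's method across every gene tested and a threshold of 0.05. Dividing and other cells of a library were compared with the library as a block. Shares of dividing cells were compared by an exact permutation test over libraries after each cell was thinned to 1000 UMIs (Python 3.11.15). The fits were tested on simulated data with 200 genes changed. Gene positions were read from GENCODE release 21. Alternatives were TMM factors, DESeq2 1.42.0, no filter, totals without mitochondrial and ribosomal protein genes, other definitions of dividing and CD8+ T cells, a fit over all libraries, and leaving out each library. The cells in the middle of the UMI range, and the block of library numbers, were added after the data were seen.

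All members are named in the kidney time course, and elsewhere the 5 highest and the 5 lowest by log2 fold change, and 3 genes per further list and direction. Other members are named where a result turns on them, after their values were seen. Some genes of the marker lists are not reported here.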

Additional observations from a re-analysis of the deposited data

Results flagged for a closer look

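A single library stood apart from the rest of its group in 6 of 120 sets of 1 gene and 1 group of 5 libraries, by Dixon's test at 95%, and chance gives about 1 in 20. The sets share libraries, so they are not independent. In 3-week accepted kidneys, Nop56 was at 83.5 CPM in 1 library and at 104 to 110.3 CPM in the others, Nop14 at 42.7 against 54.9 to 59.6 CPM, and Ncl at 489 against 593 to 615 CPM. The low values of Nop56 and Ncl were both from replicate 1. That library also had the lowest summed level (3699 CPM) and the highest median of UMIs per cell (2982) of this group. Nob1 was at 20.6 CPM in 1 library of this group and at 17.2 to 17.9 CPM in the others. Ddx21 was at 132 CPM in 1 library of 3-week spleens, against 173 to 189 CPM, and at 167 CPM in 1 naive spleen, against 142 to 149 CPM.

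The change from 1 to 3 weeks differed between accepted kidney and spleen for 13 of the 40 genes by the interaction in edgeR. Kidney less spleen, on the log2 scale, it was -1.18 for Nme2, -0.99 for Srm, -0.79 for Nop16, -0.75 for Gar1, -0.72 for Mrto4, -0.71 for Nhp2, -0.60 for Ran, -0.57 for Npm1, -0.57 for Nme1, -0.54 for Dkc1, -0.50 for Wdr12, -0.40 for Eif4a1, and -0.37 for Nop58. All 13 were lower in kidney, against 21.5% higher and 7.15% lower among all genes. These calls share the 1-week and 3-week libraries of the comparisons within each tissue. When only cells without a UMI of any of 10 genes of division were kept, 3 of the 40 genes were called lower and none higher, against 7.69% higher and 3.80% lower.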

How the results depend on the processing

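Counts of the 40 genes called, in either direction, moved by over 1.5 times in these settings, and the cause was not tested. The percentage of all tested genes that were called stands in parentheses. With the settings of the report it was 71.1% and 48.2% in kidney to 24 weeks and in spleen to 3 weeks, 58.3% in spleen to 24 weeks, 56.8% for 1-week against naive spleen, 28.7% for the interaction, and 46.3%, 28.6%, and 18.8% for dividing against other cells in accepted kidney, spleen, and rejecting kidney. With cells that held no UMI of 10 genes of division they were 17 of 40 (46.5%) from 3-week kidney to the libraries labelled 24-week kidney, 13 of 36 tested (42.2%) in spleen from 1 to 3 weeks, 20 of 33 (49.7%) from 3-week spleen to the libraries labelled 24-week spleen, 15 of 38 (45.5%) for 1-week against naive spleen, and 3 of 40 (11.5%) for the interaction. The interaction gave 20 (24.3%) with TMM factors, 20 (23.8%) with DESeq2, 21 (31.7%) with the dividing call after thinning, and 21 (33.8%) with all CD8+ T cells. Dividing cells of 3-week against 1-week kidney gave 14 of 21 tested (66.96%), and 27 of 40 (73.5%) with at least 1 of 4 genes. Since the 1-week libraries alone can bring a gene past the filter there, nothing is read from these counts. For dividing against other cells, accepted kidney gave 14 (29.1%) after thinning and 11 (20.97%) in the middle of the UMI range. Spleen gave 15 (26.2%) with TMM factors, 3 (12.6%) with DESeq2, and 19 (25.4%) without mitochondrial and ribosomal protein genes, and rejecting kidney 4 (3.95%) with DESeq2, 2 (3.46%) after thinning, 5 (4.78%) with no replicate block, and 5 (10.6%) in the middle of the UMI range. No percentage of all genes is given for the fits that left out 1 library, so their counts are not read as results about the 40 genes. They were 25 to 28 for kidney from 1 to 3 weeks and 25 to 28 to 24 weeks, and 17 to 24 and 31 to 34 in spleen. The interaction gave 11 to 15, kidney against spleen 13 to 21, spleen against naive 23 to 24, and rejecting against accepted kidney 16 to 22. Dividing against other cells gave 28 to 31 in accepted kidney and 3 to 11 in spleen. With 2 libraries, no library could be left out of that comparison in rejecting kidney.

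With dividing cells called by 1 of 4 genes, the share of dividing cells differed between 24 and 3 weeks by -4.79 percentage points in libraries labelled kidney and 2.13 in those labelled spleen (both exact permutation p = 0.0179), which was not so with 2 genes. With CPM taken without mitochondrial and ribosomal protein genes, the summed level of other cells relative to 1-week accepted kidney was 1.19 in libraries labelled 24-week kidney, 0.610 in 3-week kidney, 1.08 in naive spleen, 0.604 in rejecting kidney, 1.14, 1.10, and 0.672 in spleen at 1, 3, and 24 weeks, and for dividing cells 0.660 in rejecting kidney and 0.688 in rejecting spleen. The values above 1 depend on these totals. At plain totals, libraries labelled 24-week kidney and spleens at 1 and 3 weeks lay within the 5469 to 6569 CPM of 1-week accepted kidneys. Naive spleens lay within or below that range.

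Over all 40 genes, called or not, 13 changed sign with TMM factors and 13 with DESeq2 in kidney from 1 to 3 weeks, 8 with each of these in kidney to 24 weeks, 5 with each in spleen from 1 to 3 weeks, and 11 with each in rejecting against accepted kidney. For dividing against other cells, 25 of 39 changed sign in the middle of the UMI range and 12 of 40 after thinning in accepted kidney. In rejecting kidney these were 7 of 30 and 11 of 39. In kidney against spleen at 1 week, 12 changed sign with all CD8+ T cells and 10 after thinning. The values that follow are limited to all 40 genes in kidney from 1 to 3 weeks and, in each other comparison, to the 5 highest and the 5 lowest. There, over all alternatives, 2269 kept their call and, where called, their direction, 49 gained a call, 130 lost one, and 36 changed sign with a call in at least 1 of the settings compared. The changes of sign given below are those 36. From 1 to 3 weeks in kidney the log2 fold change turned negative with TMM factors and with DESeq2 for Bop1 (-0.35 and -0.36), Ddx21 (-0.26 and -0.26), Nob1 (-0.43 and -0.44), Noc4l (-0.016 and -0.021), Nop10 (-0.048 and -0.053), Odc1 (-0.41 and -0.41), Polr1c (-0.16 and -0.16), Rrp9 (-0.34 and -0.35), Rrs1 (-0.33 and -0.34), Utp20 (-0.047 and -0.051), and Wdr43 (-0.16 and -0.17), and with all CD8+ T cells for Noc4l (-0.014) and Nolc1 (-0.042). From 3 to 24 weeks in kidney it turned positive with TMM factors, DESeq2, and totals without mitochondrial and ribosomal protein genes for Noc4l (0.045, 0.046, and 0.0081), Polr1c (0.18, 0.18, and 0.14), and Rrp1b (0.10, 0.11, and 0.068). Nop10 turned to -0.26 in spleen to 24 weeks without those genes, and in the middle of the UMI range Nop10 (-0.22) and Nop14 (-0.46) turned negative.

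Libraries of kidney and spleen at 1 week with the same number in their tags had deviations that correlated at 0.101, 0.0339, and 0.114 (10271 genes). Every library correlated best with its own number, and no pair of different numbers was above 0.0222. The numbers were not taken as pairs, since the labels do not state that they mark the same mouse. With the number as a replicate block 19 of the 40 genes were called in kidney against spleen at 1 week, as without it, and 0 changed sign. No percentage of all genes is given for the fit with this block, so the equal count is not read as a result. The interaction was not fitted with such a block. Without the block of libraries, dividing against other cells gave 23 calls in accepted kidney (26.5% of all genes) and 7 in spleen (27.9%). Low counts limit the precision for genes such as Polr1b, at 2.77 to 3.81 CPM in 1-week kidneys.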

Other observations

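Genes of the Myc network, which are not among the 40, moved from 3-week kidney to the libraries labelled 24-week kidney. Of 9 tested, 1 was higher and 7 were lower, against 14.1% higher and 57.02% lower among all genes, and with TMM factors 2 were higher and 5 lower, against 29.1% higher and 31.5% lower. Mxd1 (log2 fold change -2.95, SE 0.14, adjusted p = 1.97e-11), Mxd4 (log2 fold change -2.88, SE 0.13, adjusted p = 9.31e-12), and Mxi1 (log2 fold change -2.76, SE 0.20, adjusted p = 5.49e-09), whose proteins pair with MAX, were lower, and Myc was higher (log2 fold change 1.43, SE 0.22, adjusted p = 2.35e-05). The limit on the tissue labels at this time holds here too.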
